A study of Mus musculus with 6 samples.

Results

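Classical MHC class I molecules and the immunoproteasome were followed through 10 genes, taken from the deposited table as the rows whose symbol was H2-K1, H2-D1, B2m, Tap1, Tap2, Tapbp, Nlrc5, Psmb8, Psmb9 or Psmb10. All 10 had a row among the 27761 of the table, and all 10 passed the filter on low values. RNA was sequenced from mouse bone marrow cells that carry B220, a form of CD45 found on B-lineage cells from the pro-B stage on and on plasmacytoid dendritic cells. There were 3 libraries with the genotype label PELI2 knockout, which their titles call CKO, and 3 labelled WT; the strain, the age of the mice, the form of the deletion and any driver line are not given in the sources used here. Values are fragments per kilobase of transcript scaled to library size (FPKM), and the steps between low values placed the depth at 16630000 to 18120000 reads per library. The labels do not say that replicates came from separate mice, and p-values therefore describe the spread of these 6 libraries, which may be technical.

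Almost every nucleated cell shows fragments of its own proteins on class I molecules. Proteasomes cut the proteins, the TAP transporter moves the peptides into the endoplasmic reticulum, tapasin holds empty class I molecules next to the transporter, and a heavy chain with beta-2 microglobulin carries the peptide to the surface for CD8 T cells. Interferon and the transactivator NLRC5 raise these genes together, and lymphocytes use immunoproteasomes, in which inducible subunits stand in for the constitutive catalytic ones.

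Peli2, which encodes a Pellino E3 ubiquitin ligase, was not lower in the knockout-labelled libraries. It stood at 3.07, 2.70 and 2.47 FPKM there, against 2.03, 2.54 and 1.99 FPKM in WT, and the groups overlapped (two-sided exact permutation test, p = 0.2, where 3 against 3 libraries cannot go below 0.1). A value per gene does not show a deletion of some exons, and that row also lists the Entrez ID of a Gapdh pseudogene. Directions below are therefore those of the label. B cell markers were present in every library, and the summed level of the 10 listed ran from 1529 to 1617 FPKM in the knockout-labelled libraries and from 1892 to 2255 FPKM in WT. Granulocyte markers were present too, summing to 12201 to 14409 FPKM in the knockout-labelled libraries and 7748 to 10751 FPKM in WT. In all 14 granulocyte and all 10 monocyte markers the mean was higher with the knockout label, and in all 10 B cell markers it was lower. Erythroid markers summed to 11463 to 14463 FPKM with the knockout label and 7800 to 11733 FPKM in WT, those of monocytes and macrophages to 1019 to 1260 and 683 to 956 FPKM, and those of plasmacytoid dendritic cells to 548 to 663 and 440 to 487 FPKM. Conventional dendritic cell markers summed to 39.3 to 46.03 FPKM with the knockout label and 30.03 to 32.7 FPKM in WT, and T and NK cell markers to 132 to 151 and 133 to 140 FPKM. None of these markers was at 0 in all libraries. Nearly all of these cell types make class I molecules, and the part of the mixture in the values below was not tested.

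None of the 10 genes passed the test over all genes. On log2(FPKM + 1), 9 of the 10 differed by less than 0.1, as did 50.2% of the 12953 genes tested, and the median difference was -0.0058 for the 10 genes and -0.014 for all genes tested. The largest difference belonged to Nlrc5, whose mean with the knockout label differed from that of WT by -11.1%, while the means of the other 9 lay within 4.39% of WT. All 10 had overlapping groups. At adjusted p under 0.05 (limma, adjusted over all genes tested) 0.0232% of all genes were called, and 0 of the 10. At an unadjusted p under 0.05, 1 of the 10 was lower and 0 were higher, beside 8.88% and 9.2% of all genes tested. Groups lay apart for 25.8% of all genes tested. These cells are a mixture, so fewer cells of a type and less RNA per cell cannot be told apart for any of the values below.

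**Figure D1:**
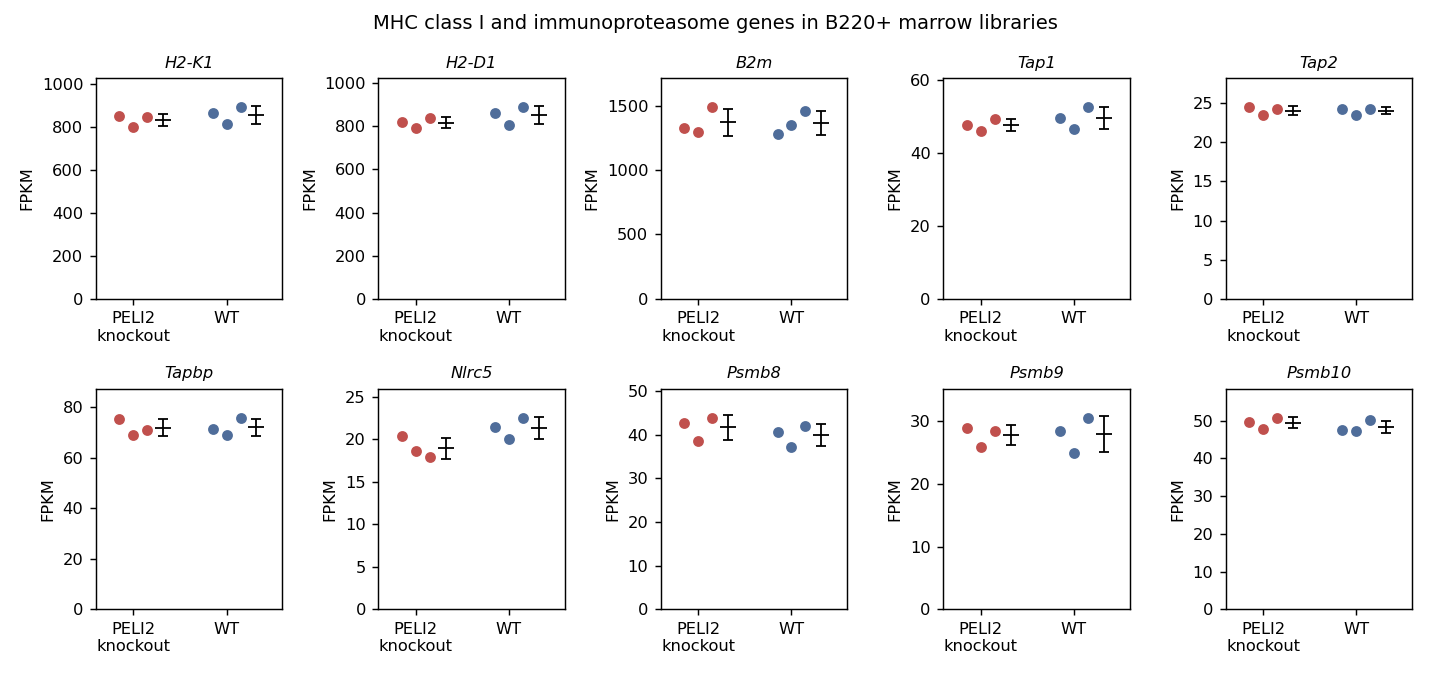
FPKM of each of the 10 genes (vertical axes, from 0) in the 3 libraries labelled PELI2 knockout (red) and the 3 WT libraries (blue), with the mean and SD of each group as a black mark. The groups overlap in every panel, and Nlrc5 is the gene whose means lie farthest apart relative to their size, at 19.0 and 21.3 FPKM.

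The chains of the class I molecule itself were among the most abundant messages of these libraries. H2-K1 (ENSMUSG00000061232, GRCm38 chromosome 17, 33996017 to 34000333, minus strand) and H2-D1 (ENSMUSG00000073411, chromosome 17, 35262730 to 35267499, plus strand) encode the heavy chains that hold the peptide. B2m (ENSMUSG00000060802, chromosome 2, 122147686 to 122153083, plus strand) encodes beta-2 microglobulin, the invariant light chain. By mean FPKM over the 6 libraries B2m ranked 16 in the table, H2-K1 ranked 29 and H2-D1 ranked 31.

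H2-K1 stood at 851, 799 and 844 FPKM in the knockout-labelled libraries, against 865, 812 and 892 FPKM in WT. H2-D1 stood at 823, 790.4 and 840.0 FPKM in the knockout-labelled libraries, against 864, 806 and 889 FPKM in WT. In both genes replicate 2 was the lowest library of its group. The means of H2-K1 were 831 ± 28.5 and 856 ± 40.8 FPKM (SD, n = 3 each, knockout label and WT), a difference of -0.04 on the log2(FPKM + 1) scale with a standard error of 0.078 and a 95% interval from -0.23 to 0.14 (limma, adjusted p = 0.802). Those of H2-D1 were 818 ± 25.2 and 853 ± 42.5 FPKM, a difference of -0.06 with a standard error of 0.077 and an interval from -0.25 to 0.12 (limma, adjusted p = 0.708).

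B2m stood at 1332, 1296 and 1491 FPKM in the knockout-labelled libraries, against 1279, 1354 and 1463 FPKM in WT, with replicate 3 highest in each group. Its means were 1373 ± 104 and 1365 ± 92.3 FPKM (SD, n = 3 each, knockout label and WT), and the difference of 0.0077 had an interval from -0.24 to 0.25 (limma, adjusted p = 0.973), the widest of the 10. The sign of this small difference turned with a common total for each library (-0.066) and with quantile normalization (-0.13).

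H2-K1 and H2-D1 moved together from library to library. The ratio of their FPKM was 1.035, 1.011 and 1.005 in the knockout-labelled libraries, against 1.002, 1.007 and 1.003 in WT. The 2 genes are close copies, and reads of 50 bases do not always separate them: of the distinct stretches of 50 bases in the protein-coding transcripts of H2-K1 (GENCODE M21), 5.43% also occur in H2-D1 transcripts and 6.87% in at least 1 other gene. For H2-D1 13.9% occur elsewhere, led by H2-Q1, H2-K1 and H2-Q7. B2m, Nlrc5 and Psmb10 share no such stretch with another gene, as far as the annotated transcripts go. How the authors divided shared reads is not given in the sources used here.

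The promoters of the 3 chain genes are shown as a description, and their part in the levels of these genes was not tested. Each is 300 bases from RefSeq on GRCm38.p6, 250 before the annotated start and 50 after it, printed 5′ to 3′ on the strand of the gene. Capitals mark GGGG and CCCC with 3 bases between them, the outer letters of an NF-kB site, GAAA or GAA followed after 2 bases by GAAA, the spacing of interferon response elements, and TGACG followed after 20 bases by ATTGG, the cores of an X2 box and an inverted CCAAT box, of which the bases between stay in lower case. Both strands were read, so the interferon spacing appears in H2-K1 and H2-D1 as its complement. H2-K1 is chr17:34000298-34000597, minus strand. H2-D1 is chr17:35262844-35263143, plus strand. B2m is chr2:122147437-122147736, plus strand.
H2-K1: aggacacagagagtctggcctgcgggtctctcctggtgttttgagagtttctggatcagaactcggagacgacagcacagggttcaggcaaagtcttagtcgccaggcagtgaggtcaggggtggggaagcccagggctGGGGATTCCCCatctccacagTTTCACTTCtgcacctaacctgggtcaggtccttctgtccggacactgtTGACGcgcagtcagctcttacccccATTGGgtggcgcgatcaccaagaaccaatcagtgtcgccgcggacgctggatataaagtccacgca
H2-D1: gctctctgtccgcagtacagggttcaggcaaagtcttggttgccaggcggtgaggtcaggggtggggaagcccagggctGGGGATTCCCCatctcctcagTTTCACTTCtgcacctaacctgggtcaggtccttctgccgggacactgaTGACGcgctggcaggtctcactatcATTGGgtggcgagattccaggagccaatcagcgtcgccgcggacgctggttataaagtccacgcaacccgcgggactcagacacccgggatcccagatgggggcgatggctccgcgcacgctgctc
B2m: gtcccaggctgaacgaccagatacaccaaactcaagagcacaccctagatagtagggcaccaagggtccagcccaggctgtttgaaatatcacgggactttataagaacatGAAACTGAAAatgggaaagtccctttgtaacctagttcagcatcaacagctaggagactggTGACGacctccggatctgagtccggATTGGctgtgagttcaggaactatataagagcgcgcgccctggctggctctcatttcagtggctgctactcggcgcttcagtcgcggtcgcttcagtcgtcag

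H2-K1 and H2-D1 carry the NF-kB letters, the short interferon spacing and the X2-to-CCAAT pair in the same order, and the longest run of bases they share is 47. B2m carries the long interferon spacing and the X2-to-CCAAT pair, and the NF-kB letters are not in its window. In 27025 promoters of the same length the NF-kB letters occurred in 1.006%, GAAA spaced by 2 bases from GAAA in 3.49%, GAA spaced by 2 bases from GAAA in 7.56%, and the pair with exactly 20 bases between in 0.0962%. The pair contains the TGACG and CCAAT cores by construction. Among the 8 of the 10 genes with a promoter in the table, only these 3 held the pair. The spacing was read from these promoters before it was searched for, so the match is a description of these windows.

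Transport and loading genes stood well below the chain genes in FPKM, and their differences between the labels ran from -0.05 to 0.0014 on log2(FPKM + 1). TAP1 and TAP2 together form the peptide transporter, and tapasin, the product of Tapbp, edits which peptides are loaded. Tap1 (ENSMUSG00000037321, chromosome 17, 34187553 to 34197225, plus strand) stood at 47.6, 46.2 and 49.5 FPKM in the knockout-labelled libraries, against 49.6, 46.5 and 52.6 FPKM in WT. The lowest value was replicate 2 in both groups, and the difference was -0.05 with a standard error of 0.060 and an interval from -0.20 to 0.09 (limma, adjusted p = 0.670).

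Tap2 (ENSMUSG00000024339, chromosome 17, 34203527 to 34216321, plus strand) had the narrowest spread of the 10. It stood at 24.5, 23.5 and 24.2 FPKM in the knockout-labelled libraries, against 24.3, 23.6 and 24.3 FPKM in WT. Its means were 24.1 ± 0.534 and 24.1 ± 0.428 FPKM (SD, n = 3 each, knockout label and WT), and the interval of the difference ran from -0.10 to 0.10 (limma, adjusted p = 0.989). The FPKM ratio of Tap1 to Tap2 was 1.94, 1.97 and 2.04 in the knockout-labelled libraries, against 2.04, 1.97 and 2.17 in WT.

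Tapbp (ENSMUSG00000024308, chromosome 17, 33915899 to 33929288, plus strand) stood at 75.4, 69.0 and 71.1 FPKM in the knockout-labelled libraries, against 71.2, 69.1 and 75.7 FPKM in WT. Its means of 71.8 ± 3.27 and 72.0 ± 3.37 FPKM (SD, n = 3 each, knockout label and WT) differed by less than the spread within either group (limma, adjusted p = 0.981, interval -0.14 to 0.13). Of its 50-base stretches 22.4% occur in other genes, mostly the antisense gene Gm19412, and 9.52% of those of Tap2 occur in the antisense gene Gm15821. Without a statement on strand, the reads of such a pair cannot be told apart.

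Nlrc5 (ENSMUSG00000074151, chromosome 8, 94434356 to 94527272, plus strand), the transactivator that binds class I promoters through the RFX complex, had the lower mean in the knockout-labelled libraries but did not pass the test over all genes. It stood at 20.35, 18.62 and 17.97 FPKM in the knockout-labelled libraries, against 21.48, 20.01 and 22.54 FPKM in WT. One library kept the groups from lying apart: replicate 1 with the knockout label was above replicate 2 of WT. The means were 19.0 ± 1.23 and 21.3 ± 1.27 FPKM (SD, n = 3 each, knockout label and WT), a difference of -0.16 with a standard error of 0.067 and a 95% interval from -0.32 to -0.0023 (limma, adjusted p = 0.271). The unadjusted p of the limma test, in a design where an exact permutation test cannot go below 0.1, was 0.0476. By p it ranked 2279 of the genes tested, and 8.88% of all genes tested were lower at an unadjusted p under 0.05.

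The Nlrc5 difference kept its sign under every alternative tried, from -0.24 with a common total to -0.077 with the mean of the granulocyte markers in the fit. The standard error in that last fit was 0.152. Its adjusted p over the alternatives ran from 0.157 to 0.966 (limma). Without 1 library at a time the unadjusted limma value ranged from 0.0242 to 0.144, and it was above 0.05 without replicate 2 or 3 of the knockout label and without replicate 1 or 3 of WT. The summed granulocyte markers were 12201, 13208 and 14409 FPKM in replicates 1, 2 and 3 with the knockout label and 7748, 10751 and 10263 FPKM in those of WT. These ranges do not overlap, and all 14 markers had a higher mean with the knockout label. The fit itself used the mean log2(FPKM + 1) of the markers and not their sum. Its standard error for Nlrc5 was 0.152, against 0.067 without the markers. The fit with granulocyte markers therefore cannot cleanly divide the label from the granulocyte level. The part of granulocytes in the Nlrc5 value was not tested beyond that fit.

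**Figure D2:**
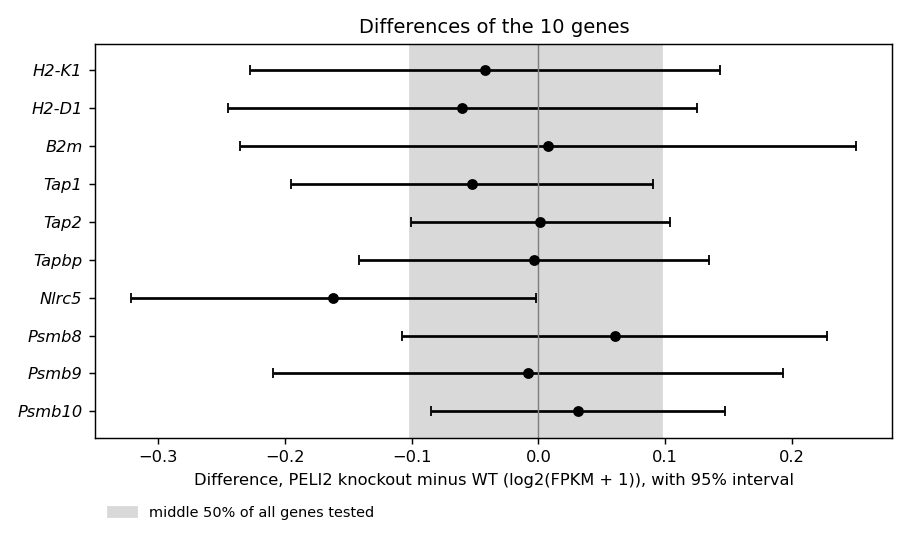
Difference of each of the 10 genes, PELI2 knockout minus WT, on log2(FPKM + 1) (horizontal axis), with the 95% interval from limma. The grey band spans the middle 50% of all genes tested, from -0.10 to 0.098, and every point but that of Nlrc5, at -0.16, lies inside it.

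The 5 tested genes whose levels followed Nlrc5 most closely, by the root mean square difference of log2(FPKM + 1) centred over the 6 libraries, were Kcna3, Slc37a1, Zmiz1, Tgif2 and Slc7a6, at 0.018 to 0.027. Kcna3, which encodes a voltage-gated potassium channel of lymphocytes, stood at 19.4, 18.3 and 17.5 FPKM in the knockout-labelled libraries, against 21.04, 19.9 and 21.6 FPKM in WT. Its groups lay apart, as did those of 25.8% of all genes tested. For Nlrc5, replicate 1 with the knockout label and replicate 2 of WT were in the opposite order. Tgif2 and Zmiz1 encode nuclear regulators of transcription, and Slc7a6 and Slc37a1 encode membrane transporters.

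The immunoproteasome subunits did not pass the test, and their differences ran from -0.0084 to 0.06 on log2(FPKM + 1). Psmb8 encodes LMP7, Psmb9 encodes LMP2 and Psmb10 encodes MECL-1, the 3 inducible catalytic subunits. Psmb8 (ENSMUSG00000024338, chromosome 17, 34197721 to 34201454, plus strand) stood at 42.6, 38.5 and 43.8 FPKM in the knockout-labelled libraries, against 40.6, 37.2 and 42.0 FPKM in WT, a difference of 0.06 with a standard error of 0.070 and an interval from -0.11 to 0.23 (limma, adjusted p = 0.679). With a common total for each library the sign turned, to -0.012.

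Psmb9 (ENSMUSG00000096727, chromosome 17, 34181988 to 34187764, minus strand) stood at 28.8, 25.8 and 28.4 FPKM in the knockout-labelled libraries, against 28.4, 24.8 and 30.5 FPKM in WT. The range of WT enclosed that of the other group, and the difference of -0.0084 had an interval from -0.21 to 0.19 (limma, adjusted p = 0.966). Psmb10 (ENSMUSG00000031897, chromosome 8, 105935735 to 105938444, minus strand) stood at 49.6, 47.8 and 50.7 FPKM in the knockout-labelled libraries, against 47.5, 47.2 and 50.2 FPKM in WT. Its difference of 0.03 had a standard error of 0.049 and an interval from -0.09 to 0.15 (limma, adjusted p = 0.762), and its sign turned with a common total (-0.042) and with quantile normalization (-0.0035).

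Psmb9 and Tap1 lie head to head, and their annotated promoters are the same DNA read from opposite strands over 275 bases. The window is shown on the Tap1 strand, chr17:34187306-34187605 (RefSeq, GRCm38.p6), with CCAAT and TGACG in capitals, letters that 37.9% and 21.02% of all promoters hold on either strand.
Tap1: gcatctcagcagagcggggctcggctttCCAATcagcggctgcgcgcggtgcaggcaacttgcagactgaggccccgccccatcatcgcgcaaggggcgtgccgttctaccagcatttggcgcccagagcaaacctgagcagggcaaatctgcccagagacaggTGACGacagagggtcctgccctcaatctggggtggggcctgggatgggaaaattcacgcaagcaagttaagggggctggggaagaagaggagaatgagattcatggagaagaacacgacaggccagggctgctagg
The protein-coding transcripts of Psmb9 also share 9.71% of their 50-base stretches with Tap1, so a part of the reads of this pair cannot be assigned without strand. In the libraries both genes were lowest in replicate 2 of either group and highest in replicate 3 of WT. That was not particular to the pair. In replicate 2 with the knockout label 9 of the 10 genes were lowest of their group, and in replicate 2 of WT also 9. Replicate 3 of WT was the highest library for 6 of the 10.

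Each inducible subunit takes the place of 1 constitutive subunit, and FPKM are per length, so their ratio can be read within a library. The ratio of Psmb8 to Psmb5 was 0.713, 0.714 and 0.727 in the knockout-labelled libraries, against 0.728, 0.695 and 0.705 in WT. The ratio of Psmb9 to Psmb6 was 0.738, 0.607 and 0.603 in the knockout-labelled libraries, against 0.621, 0.595 and 0.662 in WT, and the high value of replicate 1 set the sign of the difference, which was 0.024 with it and -0.021 without it, and 0.0081 (without replicate 2 of WT) to 0.047 (without replicate 3 of the knockout label) without any other library. Psmb10 exceeded Psmb7, with ratios of 2.85, 2.88 and 3.10 in the knockout-labelled libraries, against 2.93, 2.65 and 3.06 in WT. That difference of 0.063 was -0.014 without replicate 3 of the knockout label, -0.054 without replicate 2 of WT and 0.155 without replicate 3 of WT. The ratios of Psmb8 to Psmb5 differed by 0.0084, and by 0.0012 to 0.018 without 1 library. The groups overlapped for all 3 ratios, and no test was made of them.

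**Figure D3:**
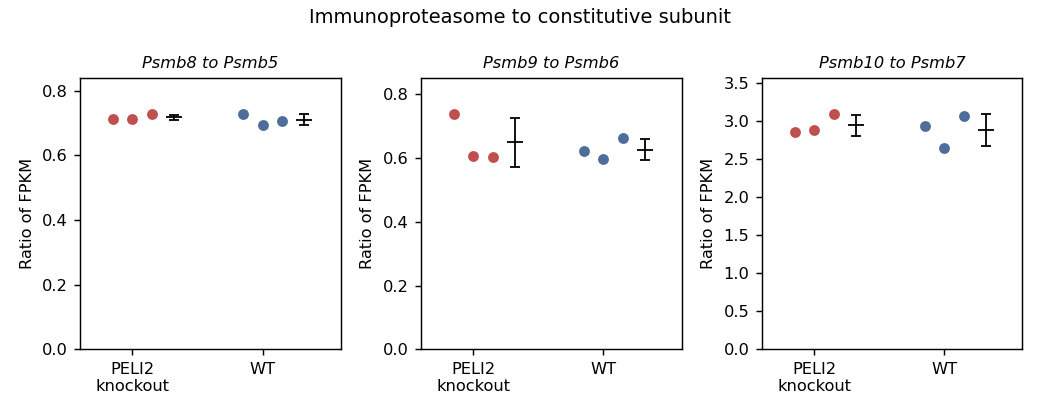
FPKM ratio of each inducible catalytic subunit to the constitutive subunit it replaces (vertical axes, from 0) in the 3 libraries labelled PELI2 knockout (red) and the 3 WT libraries (blue), with the mean and SD of each group in black. The means are 0.718 and 0.709 for Psmb8 to Psmb5, 0.650 and 0.626 for Psmb9 to Psmb6, and 2.94 and 2.88 for Psmb10 to Psmb7, knockout label first.

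In 3 of the 6 libraries all 10 genes lay on the same side of the mean of their group. In replicate 2 with the knockout label all 10 lay below the mean of their group, at -1.91% to -7.54%, and in replicate 2 of WT all 10 lay below theirs, at -0.833% to -11.1%. Replicate 3 of WT had all 10 above its group mean, by 0.975% to 9.13%. Over all genes tested the share above the group mean was 50.5%, 50.4% and 50.0% in these 3 libraries. The remaining libraries had genes on both sides. Above the mean were 8 of the 10 in replicate 1 with the knockout label (-2.99% to 7.22%) and 8 in its replicate 3 (-5.31% to 8.60%). In replicate 1 of WT 7 were above (-6.31% to 1.92%). The shares over all genes tested there were 50.3%, 46.6% and 47.6%. Replicate 2 was the shallowest library of each group, at 17050000 reads with the knockout label and 16630000 in WT; the part of depth in these shifts was not tested. Apart from Nlrc5, the means of the labels lay within 4.39% of each other, a measure on means of 3 libraries, while these shifts are of single libraries.

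**Figure D4:**
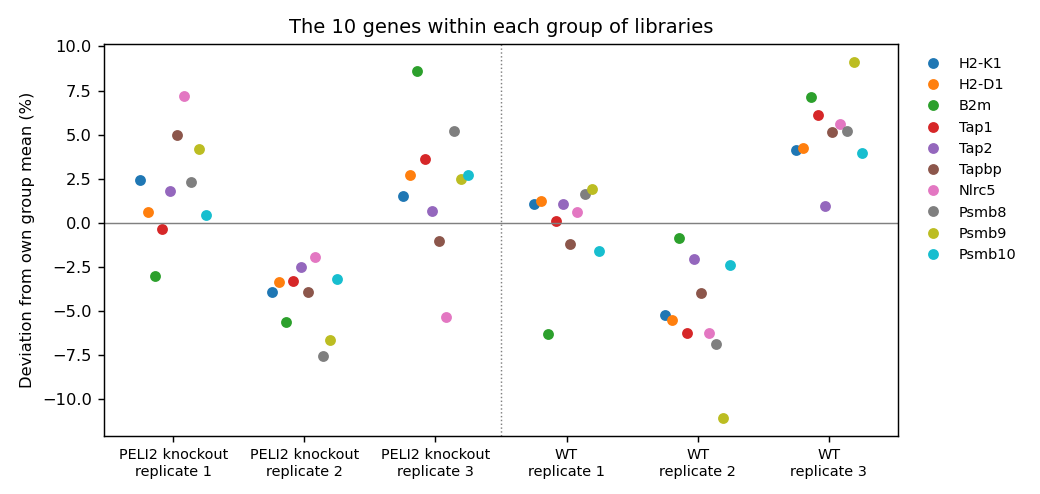
Deviation of each gene's FPKM from the mean of its own group, in percent (vertical axis), for the 6 libraries; each colour is 1 of the 10 genes. All 10 genes lie below 0 in replicate 2 of both groups and above 0 in replicate 3 of WT.

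Around the 10 genes, 72 others of the pathway were listed by role, of which 68 were tested. With adjustment over all genes tested (limma) 0 of the 68 passed the threshold of 0.05. At an unadjusted p under 0.05, 6 had a higher and 8 a lower level with the knockout label, beside 9.2% and 8.88% of all genes tested. With the mean of the granulocyte markers in the fit 0 were higher and 4 lower at that p, beside 5.64% of all genes tested in either direction. Those markers summed higher in every library with the knockout label than in any of WT, and all 14 had a higher mean with that label. The fit used their mean log2(FPKM + 1) and not the sum, and its standard errors were larger. That fit therefore cannot cleanly divide the label from the granulocyte level, here and in the lists below. None of the 3 constitutive catalytic subunits reached that p. Psmb5 averaged 58.0 ± 3.51 FPKM with the knockout label and 56.2 ± 3.07 FPKM in WT, Psmb6 averaged 42.9 ± 3.99 and 44.5 ± 2.42 FPKM, and Psmb7 averaged 16.8 ± 0.538 and 16.8 ± 0.875 FPKM (SD, n = 3 each).

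Over all 12953 genes tested, 6013 were higher and 6940 lower with the knockout label as deposited. All 11 genes of the 20S core, the barrel that both kinds of proteasome share, had a higher mean with the knockout label as deposited, but 5 of 11 with a common total for each library, 8 of 11 with quantile normalization and 5 of 11 with the granulocyte markers in the fit. Their median difference was 0.07, and -0.0073 with a common total, which moved the median of all genes tested to -0.085. It was -0.00043 with the granulocyte markers in the fit and 0.0402 without replicate 3 of the knockout label, where 8 of 11 were higher. At an unadjusted p under 0.05 this list had 1 higher and 0 lower genes, beside 9.2% and 8.88% of all genes tested. The higher one was Psma3, an alpha ring subunit, at 17.8 ± 0.0622 FPKM with the knockout label and 16.02 ± 0.688 FPKM in WT (SD, n = 3 each, limma adjusted p = 0.220). Its difference of 0.14 was 0.0064 with the granulocyte markers in the fit, with a standard error of 0.0868. Psma7 averaged 34.5 ± 1.149 and 31.5 ± 2.37 FPKM, Psmb1 120 ± 6.89 and 112 ± 0.724 FPKM, and Psmb3 39.0 ± 2.67 and 36.6 ± 1.11 FPKM, with the knockout label and in WT.

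Among 9 activators and assembly factors, 0 were higher and 1 was lower at an unadjusted p under 0.05, beside 9.2% and 8.88% of all genes tested. Psme4, which encodes the PA200 activator, averaged 19.4 ± 1.16 FPKM with the knockout label and 23.7 ± 2.44 FPKM in WT (SD, n = 3 each, limma adjusted p = 0.202). Its difference of -0.27 was -0.02 with the granulocyte markers in the fit, with a standard error of 0.161. Psme2, which with Psme1 forms the interferon-inducible PA28 ring, stood at 26.6, 22.3 and 22.97 FPKM in the knockout-labelled libraries, against 25.1, 27.3 and 34.1 FPKM in WT, with overlapping groups (limma, adjusted p = 0.333). Its partner Psme1 averaged 63.8 ± 6.26 FPKM with the knockout label and 63.3 ± 3.74 FPKM in WT. Psme3, a nuclear activator, averaged 63.9 ± 3.65 and 59.8 ± 2.05 FPKM, and the assembly chaperone Pomp 14.2 ± 0.674 and 13.3 ± 0.524 FPKM, in the same order. Psme1 lies outside the rule for named genes and was chosen after its values were seen.

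Of 10 tested genes of peptide loading and trimming, 2 reached an unadjusted p under 0.05, both on the higher side, beside 9.2% of all genes tested. Groups lay apart, with the knockout label higher, for 11.5% of all genes tested. Both are general chaperone genes of the endoplasmic reticulum that also serve the loading complex. Calr, calreticulin, stood at 206, 197 and 203 FPKM in the knockout-labelled libraries, against 165, 171 and 179 FPKM in WT, and the groups lay apart (difference 0.24, standard error 0.055; limma, adjusted p = 0.153). Pdia3, the thiol oxidoreductase ERp57, stood at 97.5, 97.9 and 92.8 FPKM in the knockout-labelled libraries, against 72.4, 82.0 and 87.9 FPKM in WT, again with the groups apart (difference 0.25, standard error 0.077; limma, adjusted p = 0.204). With the granulocyte markers in the fit the difference was 0.15 for Calr (standard error 0.111) and -0.021 for Pdia3 (standard error 0.13). The dedicated partners Tapbp, Tap1 and Tap2 had differences of -0.0032, -0.05 and 0.0014. Lap3, an aminopeptidase, averaged 9.25 ± 0.690 FPKM with the knockout label and 8.30 ± 1.10 FPKM in WT, and Thop1, a peptidase of the cytosol, 9.17 ± 0.355 and 9.90 ± 0.761 FPKM. Calr and Pdia3 also belong to secretory cells. Plasma cell markers summed to 477 to 648 FPKM with the knockout label and 352 to 485 FPKM in WT, ranges that overlap. Only 4 of those 6 markers had a higher mean with the knockout label. The part of plasma cells was not tested.

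The 13 genes of the interferon inputs went both ways, with 3 on the higher and 5 on the lower side at an unadjusted p under 0.05, beside 9.2% and 8.88% of all genes tested. With the granulocyte markers in the fit 0 were higher and 2 lower at that p, beside 5.64% of all genes tested in either direction. The lower count was 3 without replicate 1 or 2 of the knockout label or replicate 1 of WT. It was 4 without replicate 2 of WT and 2 without replicate 3 of either group. The higher count was 2 without replicate 1 of the knockout label, 4 without replicate 2 of WT and 3 without any other library. Irf9, the DNA-binding part of the type I interferon factor ISGF3, stood at 21.95, 22.46 and 22.92 FPKM in the knockout-labelled libraries, against 26.3, 25.4 and 28.8 FPKM in WT (difference -0.25, standard error 0.057; limma, adjusted p = 0.151). Irf2, an interferon regulatory factor that acts on class I promoters, averaged 14.4 ± 0.660 FPKM with the knockout label and 16.8 ± 0.553 FPKM in WT (SD, n = 3 each; limma, adjusted p = 0.168). On the higher side were 2 receptor chains. Ifnar2 averaged 29.9 ± 2.09 FPKM with the knockout label and 25.01 ± 0.477 FPKM in WT (limma, adjusted p = 0.157), and Ifngr1 averaged 35.9 ± 1.55 and 30.6 ± 1.61 FPKM (limma, adjusted p = 0.168). With the granulocyte markers in the fit the difference of Ifnar2 was 0.27 with a standard error of 0.14, against 0.25 and 0.059 without them. That of Ifngr1 was 0.02 with a standard error of 0.0935 (0.22 and 0.058 without them). Irf9 had -0.31 (standard error 0.13, unadjusted limma value 0.0587) and Irf2 -0.08 (standard error 0.105) in the fit with granulocyte markers. Further genes under the p of 0.05, named after their values were seen, included Irf8 on the higher side and Ifngr2 and Irf1 on the lower. Irf1, an activator of class I and immunoproteasome genes, averaged 46.2 ± 2.33 FPKM with the knockout label and 51.7 ± 3.27 FPKM in WT (limma, adjusted p = 0.274). The differences with the granulocyte markers in the fit were 0.22 for Irf8, -0.08 for Ifngr2 and 0.03 for Irf1, with standard errors of 0.163, 0.11 and 0.125.

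**Figure D5:**
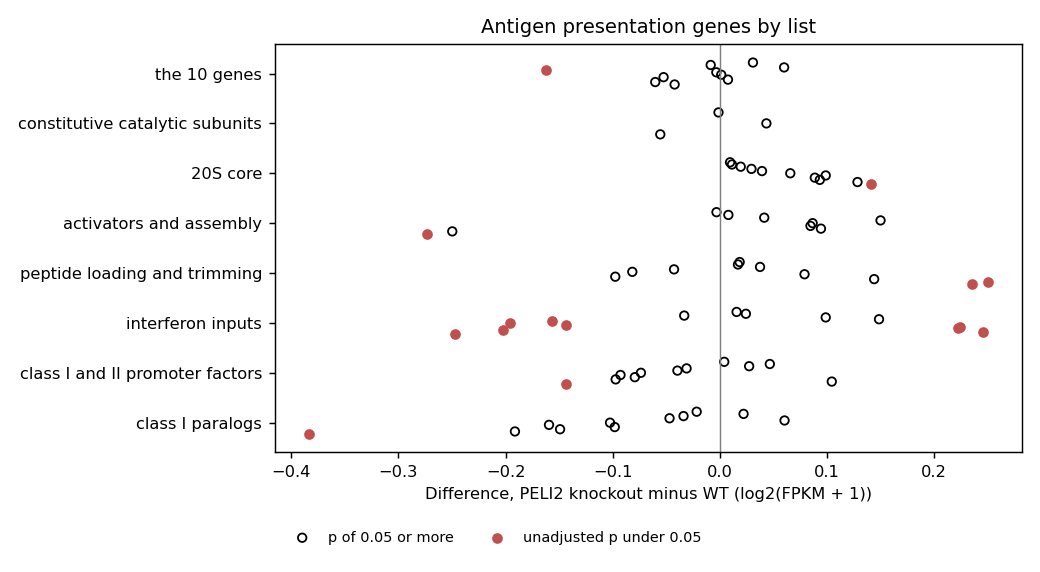
Difference of each tested gene, PELI2 knockout minus WT, on log2(FPKM + 1) (horizontal axis), for the 10 genes in the top row and the 7 lists of the pathway below it; filled red points have an unadjusted p under 0.05 (limma). Interferon inputs have such points on both sides, 5 lower and 3 higher, while Nlrc5 is the single one among the 10 genes.

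Of 11 genes for factors that bind class I and class II promoters, 0 were higher and 1 was lower at an unadjusted p under 0.05. The shares of all genes tested were 9.2% and 8.88%. Nfya, a subunit of NF-Y, which binds CCAAT, averaged 24.3 ± 1.21 FPKM with the knockout label and 26.9 ± 1.14 FPKM in WT (SD, n = 3 each, limma adjusted p = 0.256). The difference of Nfya, -0.14, was 0.02 with the granulocyte markers in the fit, with a standard error of 0.105. Nfyb, the partner of Nfya, averaged 12.1 ± 0.625 and 12.9 ± 0.0551 FPKM, and Creb1 9.70 ± 0.528 and 10.4 ± 0.135 FPKM. Rela, an NF-kB subunit, averaged 51.5 ± 1.52 FPKM with the knockout label and 47.8 ± 0.460 FPKM in WT (limma, adjusted p = 0.277).

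The other class I genes stood beside the classical ones as follows. Of 11 tested, 0 were higher and 1 was lower at an unadjusted p under 0.05, beside 9.2% and 8.88% of all genes tested. A lower mean with the knockout label was found in 9 of 11. That count was 11 of 11 with a common total, which moved the median of all genes tested to -0.085. It was 7 of 11 with the granulocyte markers in the fit. As deposited, 6940 of all 12953 genes tested were lower. The median difference of these 11 was -0.10, beside -0.0058 for the 10 genes, and that contrast was not tested. The median of the 11 was -0.05 with the granulocyte markers in the fit and -0.06 without replicate 3 of WT. Other filters changed which genes were in the set. The median was -0.047 over the 9 tested with a filter of 5 FPKM, and also over the 13 tested with no filter. Cd1d1, which presents lipids, stood at 20.1, 18.1 and 15.4 FPKM in the knockout-labelled libraries, against 26.9, 23.3 and 20.7 FPKM in WT (difference -0.38, standard error 0.12, limma adjusted p = 0.208). With the granulocyte markers in the fit its difference was 0.08, with a standard error of 0.198. H2-Q6 averaged 394 ± 17.4 FPKM with the knockout label and 438 ± 43.8 FPKM in WT, H2-Q4 167 ± 7.91 and 178 ± 10.3 FPKM, and H2-Q10 4.31 ± 0.423 and 5.06 ± 0.378 FPKM, with near-identical neighbours whose reads may be divided among them. H2-Q1, H2-Q2 and H2-T3 were not among the 11 tested.

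By position, 7 of the 10 genes lie in the MHC of chromosome 17 between the start of Tapbp and the end of H2-D1 (33915899 to 35267499). The other 70 tested genes of that stretch had a median difference of 0.03, 6 above and 4 below WT at an unadjusted p under 0.05, beside 9.2% and 8.88% of all genes tested, and 0 passed after adjustment over all genes (limma).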

How the data were processed

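The deposited table gives FPKM per gene and library, made by the authors, with no scaling across libraries stated; per the submitters' processing notes the tools were RSEM 1.2.12, DESeq2 1.4.5, HISAT2 2.0.4 and Bowtie2 2.2.5 on GRCm38.p6, and their roles are not given. Libraries were made from oligo(dT)-purified RNA and read as single ends of 50 bases, per the labels' protocols. A count model does not suit FPKM and was left out. Depth came from genes with 1 transcript in GENCODE M21, where FPKM multiplied by length gives whole reads at the right total (within 0.03 reads for 99.2% to 99.5% of values under 6 reads); the nearest total was searched. At the lowest depth 1 FPKM on 1 kb is 16.6 reads.

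The filter kept genes that reached 1 FPKM in 3 libraries or more. The test ran on log2(FPKM + 1), a scale that understates changes of low genes, with limma 3.58.1 in R 4.3.3 (eBayes with a trend, two-sided, Benjamini-Hochberg over 12953 genes, threshold 0.05, no replicate block). It was checked on simulated data whose planted changes were larger than any difference of the 10 genes, so the check does not cover changes of their size. The 10 genes, the pathway and marker lists and the rule for named genes (all 10; up to 4 per list by p; the 5 nearest to Nlrc5) were chosen with earlier results of these data known. The counts for the interferon inputs cover the whole list, and the values of 1 gene in it are not reported here. Alternatives were pseudocounts, filters, scalings, variance models, a block, a granulocyte covariate and each library left out. Promoters came from RefSeq, taking the first entry of a gene. Figures used matplotlib 3.10.9 in Python 3.11.15.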

Additional observations from a re-analysis of the deposited data

How the results depend on the processing

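No alternative put any of the 10 genes past the adjusted threshold (limma), and H2-D1, Tap1 and Nlrc5 kept their sign under all. Over all genes 3 were higher and 0 lower; 1 was higher with a filter of 5 FPKM, 0 with the granulocyte covariate, 1 to 13 without 1 library at a time (13 without replicate 3 of the knockout label), and 2 were lower without a trend. At an unadjusted p under 0.05, 0 in place of 1 of the 10 genes was lower with median-of-ratios scaling, without a trend, with library weights, with the replicate block and with the granulocyte covariate, and 0 to 1 without 1 library. The median difference of the 10 was -0.079 rescaled to a common total, where that of all genes was -0.085, and -0.056 to 0.022 without 1 library. With a common total, p before adjustment (limma) fell below 0.05 for 14 lower and 4 higher of the other pathway genes. That setting put 23.6% of all genes tested below this p, against 18.1% as deposited. The granulocyte covariate gave 4 lower and 0 higher pathway genes, where 5.64% of all genes tested were below it. Without 1 library 5 to 8 were lower and 4 to 9 higher, beside 12.7% to 19.7% of all genes tested. Signs turned for Tapbp (0.011) and Psmb9 (0.0050) with median-of-ratios scaling; for B2m (-0.066), Tap2 (-0.072), Psmb8 (-0.012) and Psmb10 (-0.042) rescaled to a common total; for B2m (-0.13) and Psmb10 (-0.0035) with quantile normalization; for B2m (-0.021), Tapbp (0.0046) and Psmb9 (0.0044) with library weights; and for H2-K1 (0.0084), B2m (-0.20), Tapbp (0.0068), Psmb9 (0.087) and Psmb10 (-0.011) with the granulocyte covariate; the cause was not tested. Without 1 library B2m ran from -0.053 to 0.059, Tap2 from -0.013 to 0.019, Tapbp from -0.038 to 0.033 and Psmb9 from -0.087 to 0.055.

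Same-numbered libraries shared only a number: their deviations from the group means correlated across genes at 0.101, 0.0362 and 0.0901, each the best match of its library, a hint from the data and not the design. With the replicate block 4 genes passed over all genes and the adjusted p of Nlrc5 was 0.274 (limma).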
